A study of Mus musculus with 4 samples.

Results

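The collagen, laminin and integrin genes of the mouse brain were followed through RNA immunoprecipitation with an antibody against CPEB2, a cytoplasmic protein that binds the U-rich cytoplasmic polyadenylation element (CPE) of mRNAs and regulates their translation. Members were chosen by gene name, as every non-control spot whose symbol began like a collagen chain (Col), a laminin chain (Lama, Lamb, Lamc) or an integrin subunit (Itga, Itgb). This choice was made with earlier results of these data known. The rule took 136 spots with 127 probes, which stood for 85 of the 24164 gene symbols on the array. Of these 85 genes, 43 encoded collagen chains, 11 laminin chains and 26 integrin subunits, and 5 carried a matching name but encode other proteins (Col4a3bp, Itgb1bp1, Itgb1bp2, Itgb3bp and Itgbl1).

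Lysate of cortex and hippocampus from 8-week-old male C57BL/6 mice was divided between beads that carried CPEB2 IgG and beads that carried control IgG, and was incubated for 3 h. There were 2 experiments, and each gave 1 CPEB2 IgG array and 1 control IgG array, 4 arrays in all, with no other treatment or allele in either group. The precipitated RNA was amplified, labelled with Cy3 and hybridised to a mouse expression array with 60-base probes. A fold change here compares the precipitate of CPEB2 IgG with that of control IgG, and measures enrichment, not the amount of an mRNA in the tissue. The titles and the protocol of the CPEB2 IgG arrays name CPEB2, whereas their description field names CPEB3. The control IgG arrays also held other places on the slide than the CPEB2 IgG arrays, and the effect of place and that of antibody cannot be told apart.

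Collagens are secreted as trimers of alpha chains, and they build fibrils, the sheet of type IV collagen in basement membranes, or beaded filaments of type VI collagen. Laminins are cross-shaped trimers of 1 alpha, 1 beta and 1 gamma chain, and they are the other main polymer of basement membranes. Integrins are receptors of paired alpha and beta subunits that hold cells to these ligands and carry signals across the membrane. In brain, basement membranes surround blood vessels and line the pial surface, while integrins are found on glia, microglia, vessel cells and neurons.

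Between 68.4% and 74.1% of the probes on an array were well above background and none was saturated. The mRNA of CPEB2 itself was 7.41-fold higher with CPEB2 IgG, that of Slc17a6 (VGLUT2, the target that the study followed) 3.89-fold higher, and that of Gapdh, a metabolic enzyme, 5.73-fold lower on the brightest of its 7 probes. All 6 neuron markers, all 4 astrocyte markers and all 4 oligodendrocyte markers were detected. The summed raw signal of the neuron markers was 67362 and 75451 with control IgG and 80956 and 80909 with CPEB2 IgG. Map2 was the only 1 of these 6 that was called, and without it the sums were 61673 and 71567 against 58065 and 54854. Of the astrocyte markers Slc1a3 was higher and Aldh1l1 and Gfap were lower, with sums of 18918 and 14377 against 31599 and 29288, or 15616 and 12244 against 2870 and 2399 without Slc1a3. The sums of both lists thus turned direction when 1 gene was left out.

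The sequences that carried the signal are shown for 10 members, because each call rests on what a single short probe captured. The lines give 30 bases of the probe, in the sense of the mRNA, 5′ to 3′, from the deposited array files with the mm9 coordinates that those files imply. The first 6 are the members with both a raw signal above 1000 and an enrichment above 1.5-fold, then Col12a1, which had the largest fold change of the members, and the neighbouring genes Col4a1 and Col4a2. The last is Col18a1, in which capitals mark the letters TTTTAT, 1 of the CPE forms searched.
Lamc1 (chr1:155066171-155066200, minus strand): aatgtgccttcactttagctgtttgcctta
Lamb1 (chr12:32014426-32014455, plus strand): acaaataacccatcatctatttaatgtttt
Col6a1 (chr10:76171553-76171582, minus strand): tctgatccaagccagctatctctgctaata
Itga4 (chr2:79173208-79173237, plus strand): tataaagatctaacagtcaactccattact
Itga6 (chr2:71694771-71694800, plus strand): ggaggtcttgttgttgttgttgttctgacc
Itgav (chr2:83646148-83646177, plus strand): aagtatatattggtagagcaactggttctt
Col12a1 (chr9:79446910-79446939, minus strand): aagcagttggaaatgtttgcaagactatga
Col4a1 (chr8:11199024-11199053, minus strand): aaactgtactatcctttcacagggttacca
Col4a2 (chr8:11448855-11448884, plus strand): gaggcagagtctaggggacagcaaaggaat
Col18a1 (chr10:76514926-76514955, minus strand): aggcaccaaataaaaatgacaTTTTATacc

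Many of the members were dim. A gene was tested when at least 1 of its probes was well above background on 2 or more arrays, and its brightest such probe stood for it. This left 69 members, of which 64 were detected on all 4 arrays, 4 on 3 arrays and 1 on 2 arrays, and none was detected with 1 antibody only. The other 16 members were not tested, and 9 of them had no probe above background on any array. The 16 were Col4a3, Col5a2, Col6a4, Col6a5, Col6a6, Col9a3, Col10a1, Col13a1, Col17a1, Col24a1, Col28a1, Itga2, Itga2b, Itgae, Itgb6 and Itgb1bp2.

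Of the 69 members tested, 18 (26.1%) were higher with CPEB2 IgG and 4 (5.80%) were lower, by limma with the experiment as a block and a Benjamini-Hochberg adjusted p below 0.05 over 19698 genes. Over all genes tested, 21.2% were higher and 20.4% were lower. The share of members higher was thus near that of all genes, and the share lower was below it. The median log2 fold change was 0.14 over the members and -0.11 over all genes. After scaling, the antibodies did not overlap in 44 of the 69 members and in 14159 of the 19698 genes. A lack of overlap, where given below, was thus common on these arrays. Each lysate was divided between the antibodies, so a fold change measures neither cell number nor RNA per cell.

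**Figure D1:**
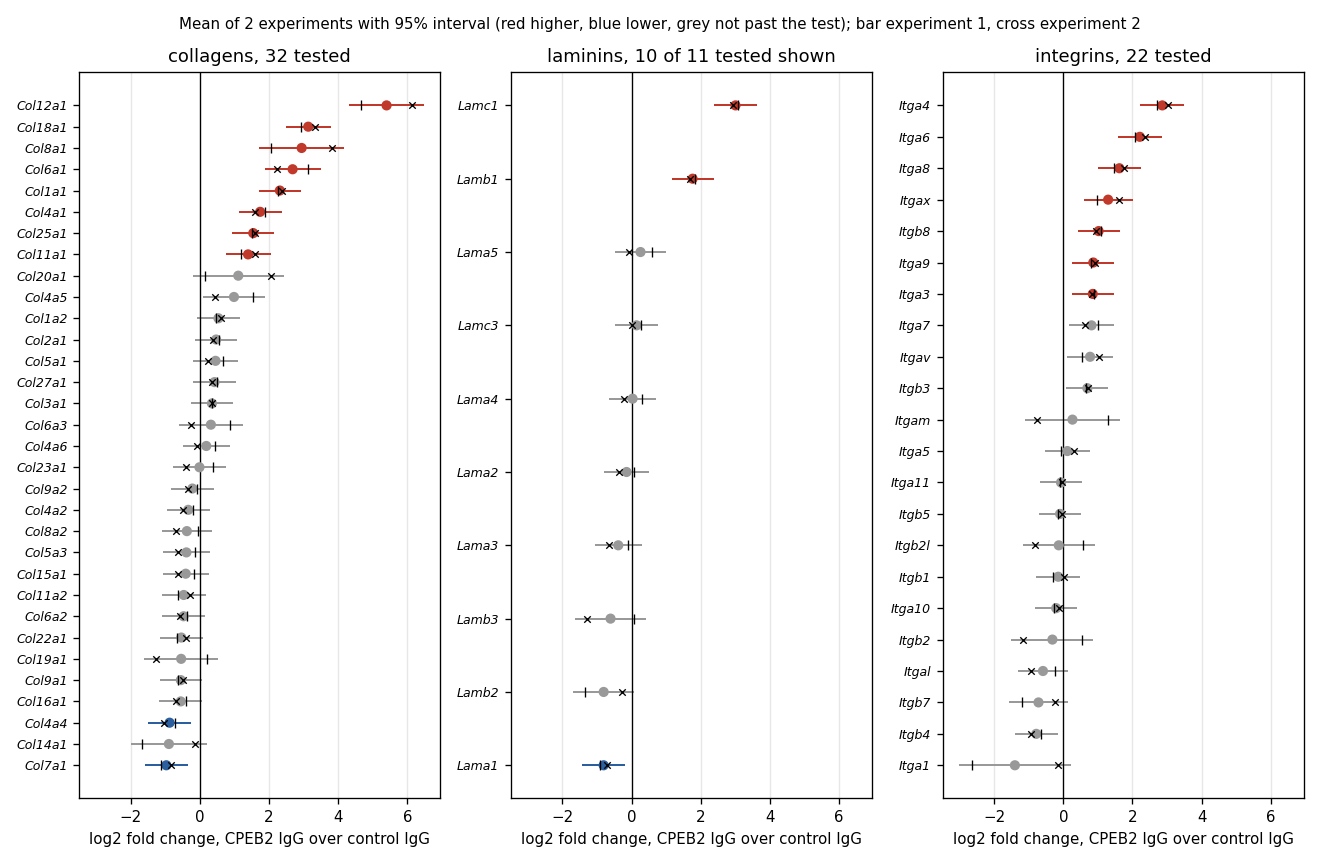
The log2 fold change of CPEB2 IgG over control IgG (horizontal axis) for the 32 collagens and 22 integrins tested and for 10 of the 11 laminins tested, with 1 gene per line. Circles give the mean of the 2 experiments with its 95% interval from limma, bars experiment 1 and crosses experiment 2. Red marks 8 collagens, 2 laminins and 7 integrins that were higher, and blue marks 2 collagens and 1 laminin that were lower.

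Among the 43 collagen chains, 32 were tested, of which 8 (25.0%) were higher and 2 (6.25%) were lower. Over all genes tested these shares were 21.2% and 20.4%, so the share of collagens higher was near that of all genes. Each structural class of collagen, with 2 to 9 chains tested, held 1 or 2 chains that were higher. The median log2 fold change of the tested collagens was 0.25. Col12a1, a fibril-associated chain, gave raw signals of 696 and 972 on the CPEB2 IgG arrays and 29.2 and 14.0 on the control IgG arrays, listed here and below in the order of experiments 1 and 2. It was 42.2-fold higher (log2 5.40 ± 0.41 SE, adjusted p = 0.00543), but 1 of the 2 control IgG arrays, that with 14.0, was not well above background for this probe, so the size of the fold rests on a control level that was only in part measured. After normexp background correction the log2 fold change of Col12a1 was 3.02, the lowest over the alternatives, and its other probe was not above background on any array.

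The other enriched collagens were spread over vessel-wall, fibril and membrane types. Col18a1, the heparan sulfate-bearing collagen of vascular basement membranes that is the source of endostatin, gave 314 and 274 with CPEB2 IgG against 43.8 and 27.5 with control IgG. It was 8.77-fold higher (log2 3.13 ± 0.25 SE, adjusted p = 0.00543). Col8a1, a network-forming chain of vessel walls, gave 141 and 330 against 35.9 and 23.5, which was 7.69-fold higher (log2 2.94 ± 0.47 SE, adjusted p = 0.0106). Neither gene had any overlap between the antibodies, but Col8a1 differed in size between experiments, at log2 2.05 and 3.83.

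Col6a1, a chain of the type VI collagen that forms beaded filaments, was the brightest collagen that was higher, with 4065 and 2793 against 493 and 602. It was 6.41-fold higher (log2 2.68 ± 0.31 SE, adjusted p = 0.00607). Its partner chains Col6a2 and Col6a3 did not pass the test, with log2 fold changes of -0.47 and 0.32. Between Col6a1 and Col6a2, the log2 fold change differed by 3.49 in experiment 1 and 2.81 in experiment 2. The mean of this difference was 2.79 in place of 3.15 after fold changes were centred within bins of probe GC content.

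Similar differences stood between chains that are assembled into the same trimer. Col1a1, which encodes the main chain of type I collagen, gave 785 and 518 with CPEB2 IgG against 174 and 102 with control IgG, a 4.96-fold difference (log2 2.31 ± 0.23 SE, adjusted p = 0.00543). Col1a2, its partner in the type I trimer, gave 755 and 599 against 585 and 396, a log2 fold change of 0.54 (95% interval -0.08 to 1.15, adjusted p = 0.130). The antibodies did not overlap for either gene, but Col1a1 exceeded Col1a2 in log2 fold change by 1.81 in experiment 1 and 1.75 in experiment 2. After fold changes were centred within bins of probe GC content, the mean of this difference was 1.03 in place of 1.78. Col3a1, another fibril-forming chain, had a log2 fold change of 0.35 (95% interval -0.25 to 0.95, adjusted p = 0.282).

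Col4a1 and Col4a2, the major type IV chains, lie head to head on chromosome 8 and are co-assembled into basement membranes. Col4a1 gave 670 and 575 with CPEB2 IgG against 193 and 192 with control IgG, a 3.34-fold difference (log2 1.74 ± 0.24 SE, adjusted p = 0.00766). Col4a2 gave 228 and 257 against 276 and 366, a log2 fold change of -0.34 (95% interval -0.97 to 0.29, adjusted p = 0.312). Their log2 fold changes differed by 2.07 and 2.09 in the 2 experiments. Both probes were 45.0% GC and lay 5969 and 5978 bases into their transcripts. A difference between 2 genes on the same arrays does not depend on the scaling between arrays, but with 2 experiments it was not given a test of its own.

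Of the minor type IV chains, Col4a4 was lower (63.5 and 51.4 against 111 and 107, log2 -0.88 ± 0.24 SE, adjusted p = 0.0424), while Col4a5 and Col4a6 did not pass the test at 0.98 and 0.18. A second probe of Col4a4, detected on 2 arrays, gave a log2 fold change of -0.12 (0.34 and -0.58 in the 2 experiments). With the mean of its detected probes Col4a4 lost its call. Col7a1, the anchoring-fibril collagen of skin, was also lower, with 47.6 and 70.4 against 110 and 126 (log2 -0.97 ± 0.24 SE, adjusted p = 0.0321). Both decreases depended on the arrays included. Over the 4 fits that each left out 1 array and had no experiment block, Col4a4 kept its call only without CPEB2 IgG replicate 1 and Col7a1 only without CPEB2 IgG replicate 2, with adjusted p up to 0.137 and 0.173.

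The 22 collagens that did not pass the test ranged in log2 fold change from -0.90 (Col14a1) to 1.11 (Col20a1). On both of these fibril-associated chains 1 array stood apart, as Col14a1 gave 184 and 151 against 618 and 169, and Col20a1 gave 71.9 and 256 against 68.6 and 62.1.

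The remaining enriched collagens were Col25a1 and Col11a1. Col25a1 encodes a transmembrane collagen of neurons, found in amyloid plaques, and gave 829 and 717 against 311 and 242 (2.91-fold, log2 1.54 ± 0.23 SE, adjusted p = 0.00907). With the mean of its detected probes in place of the brightest, Col25a1 lost its call (log2 0.90, adjusted p = 0.0521). Col11a1, a minor fibril-forming chain, was dim at 64.4 and 83.1 against 29.9 and 28.0 (2.63-fold, adjusted p = 0.0136). The groups did not overlap for either gene. Of 6 markers of fibroblasts and meningeal cells, 4 were higher (Pdgfra, Lum, Ogn and Igf2) and none was lower. Over all genes tested, 21.2% were higher and 20.4% were lower. The summed raw signal of the 6 markers was 2316 and 1626 with control IgG and 4350 and 4364 with CPEB2 IgG. Pdgfra carried most of this rise, and without it the sums were 1946 and 1304 against 2688 and 2188. All 6 of these markers were detected on all 4 arrays, and their part in the collagen values was not tested.

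**Figure D2:**
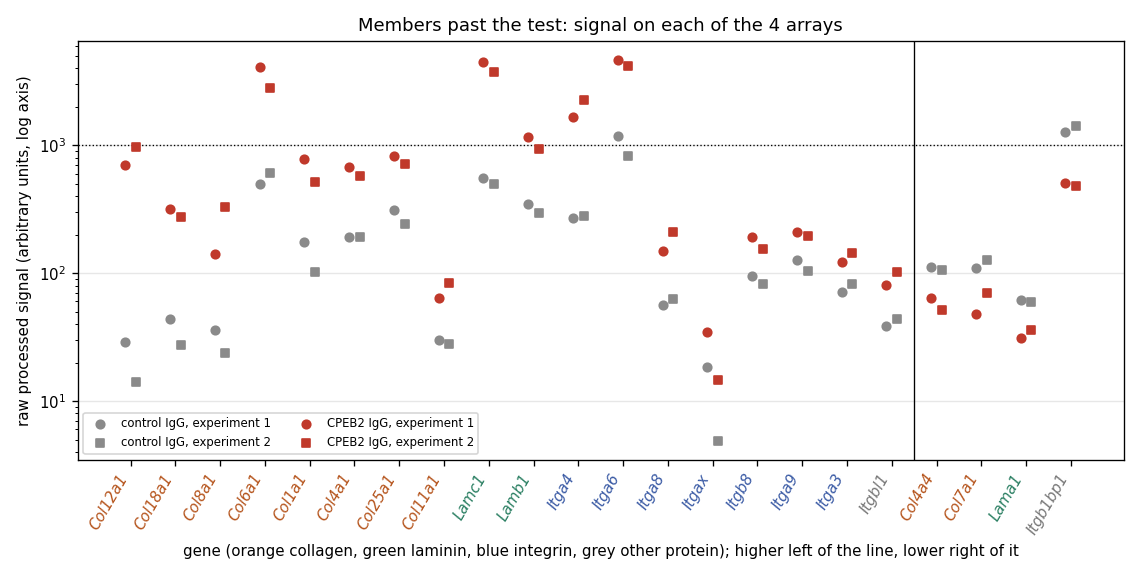
Raw processed signal (vertical log axis, arbitrary units) on each of the 4 arrays for the 22 members that passed the test, with red for CPEB2 IgG, grey for control IgG, circles for experiment 1 and squares for experiment 2. The 18 genes left of the vertical line were higher and the 4 right of it lower, and 5 genes (Col6a1, Lamc1, Lamb1, Itga4 and Itga6) have a CPEB2 IgG signal above the dotted line at 1000.

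All 11 laminin chains were tested. Lamc1 and Lamb1 were higher and Lama1 was lower, and the median log2 fold change was 0.03. Lamc1, the gamma chain shared by most laminins, gave 4469 and 3730 with CPEB2 IgG against 556 and 501 with control IgG. It was 8.03-fold higher (log2 3.01 ± 0.23 SE, adjusted p = 0.00543). Lamb1, a widely used beta chain, gave 1167 and 939 against 346 and 295, which was 3.40-fold higher (log2 1.76 ± 0.23 SE, adjusted p = 0.00719). These were the brightest laminin probes with CPEB2 IgG, and neither had any overlap between the antibodies.

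None of the 5 alpha chains, which carry the main receptor-binding domains of the laminin trimer, was higher, in the main analysis or in any of its 16 alternatives. At an unadjusted p below 0.05 the count of alpha chains higher by limma was also 0, against 4952 of the 19698 genes tested. Lama1, an early alpha chain, was dim and lower, with 31.1 and 35.9 against 61.8 and 59.7 (log2 -0.81 ± 0.23 SE, adjusted p = 0.0490). Its call was kept only without CPEB2 IgG replicate 2 when 1 array at a time was left out, and adjusted p then reached 0.157. Lama2, which is mutated in congenital muscular dystrophy, gave 138 and 120 against 140 and 157, a log2 fold change of -0.15 (95% interval -0.80 to 0.51). Lama4, an alpha chain of vessels, and Lama5, a widely expressed alpha chain, gave log2 fold changes of 0.03 (95% interval -0.65 to 0.71) and 0.26 (95% interval -0.47 to 0.98).

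Other beta and gamma chains did not pass the test. Lamb2, the beta chain of neuromuscular junctions and mature vessels, gave 24.0 and 43.5 against 64.7 and 53.2 (log2 -0.81, 95% interval -1.70 to 0.08, adjusted p = 0.121). Lamb1 exceeded Lamb2 in log2 fold change by 3.19 and 1.96 in the 2 experiments, and the mean of this difference was 1.63 in place of 2.57 after centring within GC bins. Lamc1 exceeded Lama2 by 3.03 and 3.28, and the mean of this difference was 2.95 in place of 3.15 after the same centring. Lamc3, another gamma chain, gave a log2 fold change of 0.14 (95% interval -0.48 to 0.77).

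Among the 26 integrin subunits, 22 were tested, and 7 were higher and none was lower by limma. At an unadjusted p below 0.05 there were 10 higher and 1 lower, against 4952 and 5203 of the 19698 genes tested. The alpha subunits held 6 of these 7 calls (6 of 14 tested, median log2 fold change 0.79) and the beta subunits 1 (1 of 8 tested, median -0.14). Over all genes tested, 21.2% were higher. The alpha median ran from 0.26 with no filter on dim probes (3 of 17 higher) to 1.02 after median centring (8 of 14 higher). The difference between alpha and beta subunits was not tested. The median of the beta subunits turned positive after median centring of the arrays (0.09), after centring within GC bins (0.17) and without CPEB2 IgG replicate 2 (0.17). Without CPEB2 IgG replicate 1 it was -0.40, with Itgb2 and Itgb4 called lower.

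Itga4, whose product pairs with beta subunits to bind Vcam1 and fibronectin on leukocytes, gave 1663 and 2245 with CPEB2 IgG against 270 and 281 with control IgG. It was 7.27-fold higher (log2 2.86 ± 0.24 SE, adjusted p = 0.00543) on its probe at base 9754, with no overlap between the antibodies. The other probe of Itga4, at base 2292 of the same transcript, was not well above background on any array. Itga6, the laminin receptor subunit of endothelium, glia and neural progenitors, was brighter than Itga4, at 4667 and 4153 against 1180 and 823. It was 4.63-fold higher (log2 2.21 ± 0.24 SE, adjusted p = 0.00568), and again every CPEB2 IgG value lay above every control IgG value. Itga8, which binds nephronectin and fibronectin, gave 148 and 209 against 56.3 and 62.6 (3.08-fold, log2 1.62 ± 0.24 SE, adjusted p = 0.00886).

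Weaker enrichment was measured for Itgb8, Itga9, Itga3 and Itgax. Itgb8, the beta subunit with which Itgav forms a receptor that activates TGF-beta, gave 193 and 154 against 95.2 and 81.6 (2.03-fold, adjusted p = 0.0259). Itga9, which binds tenascin and osteopontin, gave 211 and 193 against 128 and 103 (1.82-fold, adjusted p = 0.0396), and Itga3, a laminin receptor subunit, gave 122 and 144 against 70.6 and 82.5 (1.80-fold, adjusted p = 0.0407). The antibodies did not overlap for these 3 genes, but Itgb8 lost its call without either control IgG array (adjusted p up to 0.113), and Itga9 and Itga3 lost it whichever of the 4 arrays was left out (adjusted p up to 0.181 and 0.211). Itgax, a subunit of myeloid cells, was near background at 34.4 and 14.7 against 18.4 and 4.90, with overlap between the groups, and was above background on 2 arrays. Its adjusted p was 0.0208 with the experiment as a block and 0.225 without it.

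Several integrin subunits came close to the threshold without passing it. Itga7, the laminin receptor subunit of muscle, gave 835 and 721 against 438 and 478 (log2 0.81, 95% interval 0.17 to 1.46, adjusted p = 0.0552). Itgav, the main receptor subunit for matrix proteins with an RGD motif, gave 1312 and 1362 against 962 and 683 (log2 0.77, 95% interval 0.10 to 1.45, adjusted p = 0.0685). Itgb3, which pairs with it, gave 267 and 288 against 178 and 177 (log2 0.70, adjusted p = 0.0686). None of these 3 had any overlap between the antibodies, which was also true of 14159 of the 19698 genes tested. On the other side of zero, Itgb4, the hemidesmosome subunit that pairs with Itga6, gave 198 and 154 against 328 and 296 (log2 -0.78, adjusted p = 0.0558).

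Itgb1, the beta subunit shared by most receptors for collagen and laminin, was dim and did not differ beyond its spread, with 101 and 90.5 against 132 and 91.3. Its log2 fold change was -0.15 (95% interval -0.78 to 0.48, adjusted p = 0.659). Relative to Itgb1, the log2 fold change of Itga4 was higher by 3.01 in both experiments, and that of Itga6 by 2.37 and 2.35. The probes compared began at bases 2631 (Itgb1), 9754 (Itga4) and 4145 (Itga6) of their transcripts, and the part of probe position was not tested. After centring within GC bins, the mean differences were 2.27 for Itga4, in place of 3.01, and 2.19 for Itga6. Itgb5, another partner of Itgav, was the brightest beta subunit with 988 and 736 against 1154 and 773 (log2 -0.09, 95% interval -0.70 to 0.51). Itga5, the fibronectin receptor subunit, was near background at 26.1 and 26.6 against 28.9 and 22.0.

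The 3 collagen-binding alpha subunits tested (Itga1, Itga10 and Itga11) did not pass. Itga1, a receptor subunit for type IV collagen, gave 809 and 172 against 5320 and 196. This was a log2 fold change of -2.63 in experiment 1 and -0.17 in experiment 2, and the control IgG array of experiment 1 stood apart from the other 3 arrays. The Itga1 mean of -1.40 (adjusted p = 0.133) became 0.95 without that array and -3.75 without control IgG replicate 2.

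Itgam (CD11b), the microglial and myeloid subunit, was the brightest member on the CPEB2 IgG arrays at 9362 and 9187, but the control IgG arrays gave 4078 and 15744, on either side. Its log2 fold change was 1.28 in experiment 1 and -0.75 in experiment 2, with a mean of 0.26 (95% interval -1.11 to 1.64, adjusted p = 0.719). Itgb2, the partner of Itgam, was also opposite between experiments at 0.53 and -1.16. Among 6 other microglia markers, P2ry12 was higher and Aif1, C1qa and Csf1r were lower. Their summed signal was 12654 and 10812 with control IgG and 7717 and 6724 with CPEB2 IgG, or 6621 and 5088 against 4991 and 4920 without Csf1r, and all 6 were detected on all 4 arrays.

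**Figure D3:**
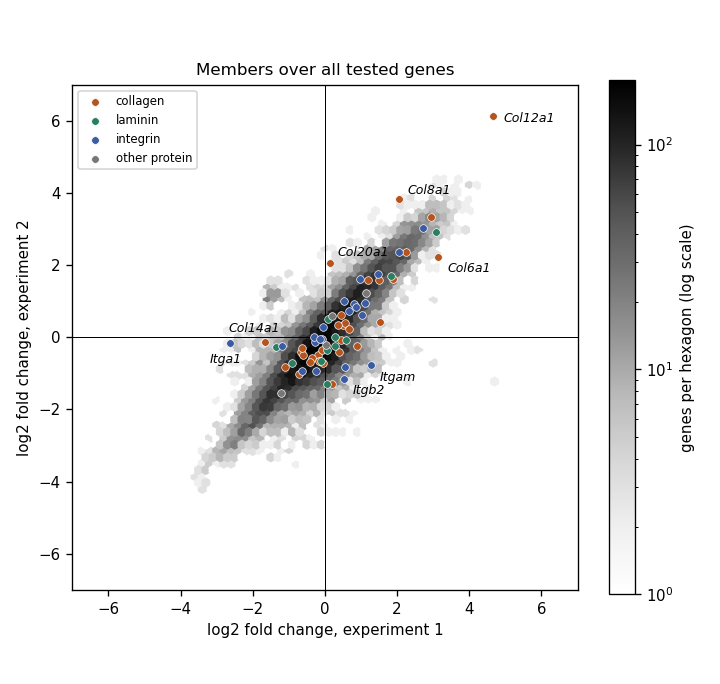
The log2 fold change of CPEB2 IgG over control IgG in experiment 1 (horizontal axis) and experiment 2 (vertical axis), with all 19698 genes tested in grey and the 69 members tested as coloured points. The members lie along the diagonal of the other genes, with Col12a1 at 4.66 and 6.14 as the farthest point, while Itgam and Itgb2 lie on opposite sides of zero in the 2 experiments.

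Across the members, the experiments ran together to about the same degree as over all genes, with a Pearson r between the fold changes of the 2 experiments of 0.82 over the 69 members and 0.82 over the 19698 genes. This is a description across genes, which are not independent replicates and share the arrays. In 14 of the 69 members, and in 3996 of the 19698 genes, the fold change had opposite signs in the 2 experiments.

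The 5 genes that the name rule took without encoding a matrix chain or receptor subunit held 1 call in each direction. Itgb1bp1 (ICAP-1), which binds the tail of the beta subunit made from Itgb1 and restrains the receptor, was lower with 508 and 478 against 1262 and 1424. It was 2.62-fold lower (log2 -1.39 ± 0.24 SE, adjusted p = 0.0128) on its brightest probe, while its second probe gave a log2 fold change of -0.24. Itgbl1, a secreted protein with integrin-like repeats, was higher at 81.1 and 101 against 38.8 and 44.0 (2.28-fold, adjusted p = 0.0171). The other probe of Itgbl1, at base 668 of the same transcript, was not well above background on any array. Without control IgG replicate 1 or CPEB2 IgG replicate 2, Itgbl1 lost its call, with adjusted p up to 0.0826.

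The study selected its candidates by a raw signal above 1000 and an enrichment above 1.5-fold, and then by a CPE in the 3′ UTR, a step that was not applied here. A gene was counted here when any of its probes passed the signal threshold on a CPEB2 IgG array and, in the mean of the 2 experiments, the fold threshold. Only 7 members had a CPEB2 IgG signal above 1000, and 6 of these passed both thresholds, namely Lamc1, Lamb1, Col6a1, Itga4, Itga6 and Itgav. Among all 7033 genes with such a signal, 47.7% passed both. Itgam was the exception. When the signal had to pass 500 instead, 11 members passed, with Col1a1, Col4a1, Col12a1, Col25a1 and Itga7 added, and above 2000 there were 4. Without experiment 1 there were 5, with Lamb1 lost, and without experiment 2 there were 6, with Itgam gained and Itgav lost.

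Where a gene had several probes, they did not always give the same answer. Of 23 members with 2 or more detected probes, 8 (34.8%) spanned more than 1 log2 unit, against 40.9% of 5548 genes on the whole array, and in 9 (39.1%) the probes lay on both sides of zero, against 37.5%. Col25a1 had the widest span. Its 4 probes gave -0.44 and -0.87 at bases 937 and 2072 of 1 annotated transcript, and 1.54 and 3.35 at bases 3841 and 6257 of the other. The 2 probes of Col14a1, a fibril-associated chain, gave -0.90 at base 5357 and 2.27 at base 6353, the second of them near background.

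The integrins showed the same kind of spread. The 2 probes of Itga6 gave 2.21 and 0.61, and belonged to different annotated transcripts. Itgav was higher on its dimmer probe, at log2 1.71 with raw signals of 610 and 494 against 190 and 160, than on the brighter probe that the test used. Itgb3 gave -0.56 at base 2618 and 0.70 at base 5665. The 2 probes of Col18a1 gave 2.24 and 3.13. Within a transcript, the probe closest to the 3′ end had the higher fold change in 14 of 21 (66.7%) member transcripts and in 74.7% of 4185 transcripts of all genes. For a gene with a single probe, as 52 members were, no such check could be made.

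**Figure D4:**
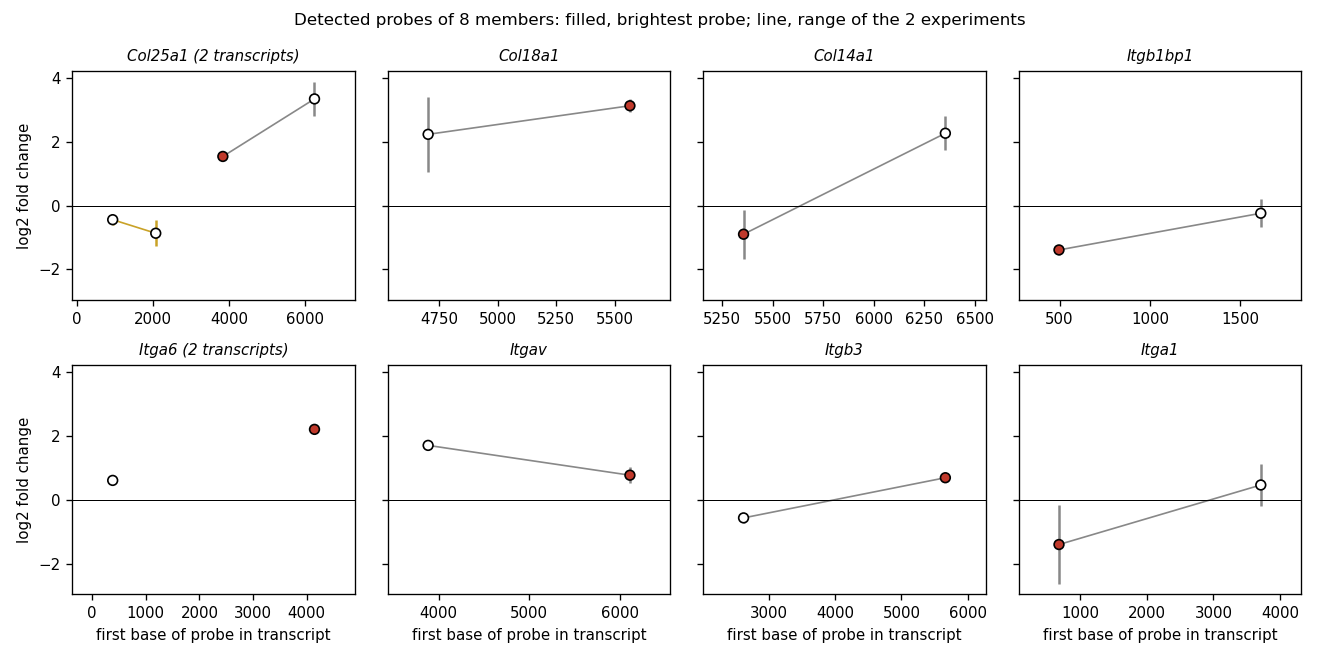
The log2 fold change of each detected probe (vertical axis) against its first base in the annotated transcript (horizontal axis) for 8 members with several probes. Filled points mark the brightest probe, vertical lines the range of the 2 experiments, and sloping lines join probes of 1 transcript. The probes of Col25a1 run from -0.87 to 3.35, and those of Col14a1, Itgb3 and Itga1 lie on both sides of zero.

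The base composition of the probe moved with the fold change. The probes of members that were higher had a median GC content of 35.0%, against 42.5% for those lower and 45.0% for those that passed in neither direction. At 40% GC or less, 10 of 25 members and 32.3% of all genes were higher, whereas at 50% GC or more 0 of 15 members and 6.58% of all genes were higher. Pearson's r between probe GC and log2 fold change was -0.42 across the 69 members and -0.36 across all genes, which share arrays and labelling and are given as a description. Centring the fold changes within bins of GC left all 18 members that were higher in place and added 5, and it left Lama1 and Itgb1bp1 of the 4 that were lower, with Col22a1 and Itgal called in place of Col4a4 and Col7a1.

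**Figure D5:**
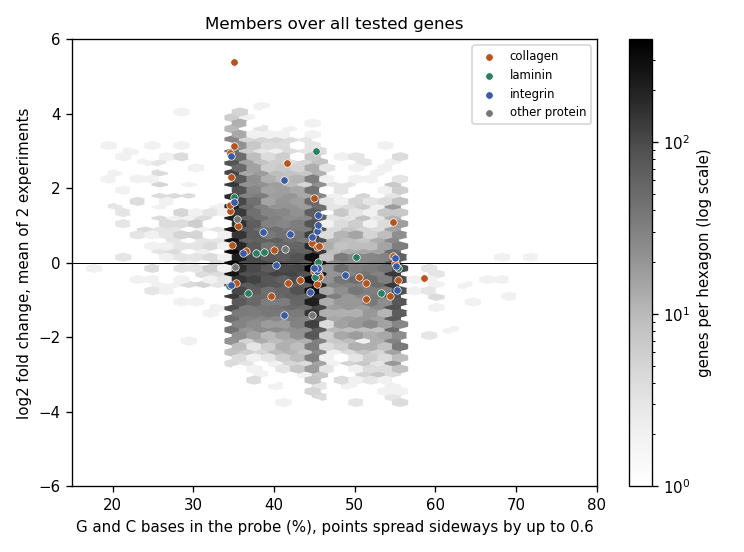
The log2 fold change (vertical axis, mean of the 2 experiments) against the percentage of G and C bases in the probe (horizontal axis), with all 19698 genes tested in grey and the 69 members as coloured points. Enriched members lie at 35.0% to 45.0% GC, and no member at 50% or more was higher.

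The CPE letters TTTTAT or TTTTAAT were present in the sense of the mRNA in 10 of the 127 member probes (7.87%) and in 5.20% of 33215 gene probes. On the opposite strand, the same letters were in 15 member probes (11.8%) and in 7.77% of gene probes. Of the probes that the test used, those of Col18a1, Col11a1 and Itgal held them. Col18a1 and Col11a1 were higher, and Itgal, a leukocyte subunit, gave a log2 fold change of -0.59 (adjusted p = 0.155). A 60-base probe is a small window of an mRNA, and the count says nothing of the rest of a transcript.

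The genes that work with these matrix and adhesion proteins were followed in 6 lists, with 125 genes on the array and 116 tested, of which 32 (27.6%) were higher and 16 (13.8%) were lower. Over all genes tested these shares were 21.2% and 20.4%. The median log2 fold change of the partner genes was 0.30. Among the basement membrane partners, 4 of 14 were higher and none was lower by limma (5 and 1 at an unadjusted p below 0.05). Over all 19698 genes, 4952 were higher and 5203 were lower at that unadjusted threshold. Dag1 (dystroglycan), a laminin receptor, gave 6840 and 7560 against 654 and 512, and was 12.9-fold higher (log2 3.69 ± 0.25 SE, adjusted p = 0.00543). Fn1 (fibronectin) was 5.78-fold, Fbln5 (an elastic-fibre protein) 7.01-fold and Pxdn (the enzyme that crosslinks type IV collagen) 2.05-fold higher. The laminin-binding linkers and proteoglycans Nid1, Nid2, Agrn and Hspg2 did not pass the test, at 0.55, 0.32, 0.63 and -0.67.

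Of 23 genes for collagen folding, modification and crosslinking, 7 were higher and 3 were lower. Ppib (cyclophilin B), a prolyl isomerase of the endoplasmic reticulum, was 8.29-fold higher, with 13901 and 10942 against 1495 and 1594. Serpinh1 (HSP47), the chaperone of procollagen, was 5.84-fold higher with 1042 and 1156 against 217 and 175. P4hb, the beta subunit of prolyl hydroxylase, was 3.10-fold higher, and the lysyl hydroxylases Plod2 and Plod3 were 2.44-fold and 2.24-fold higher. Lepre1 (prolyl hydroxylase of type I collagen) was 2.58-fold lower, and Pcolce, which helps to cleave procollagen, was 2.42-fold lower. The other calls were Adamts14 and Glt25d1, higher, and Loxl2, lower.

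Of 28 genes of the integrin adhesion complex on the cytoplasmic side, 5 were higher and 6 were lower. Actn4 (an actin-crosslinking actinin), Zyx (zyxin), Vcl (vinculin), Dock1 and Crk were higher, with Actn4 at 5.91-fold. Sharpin, an inhibitor of integrin activation, was 3.93-fold lower with 1673 and 1653 against 7030 and 6536, and Lims2, Src, Fermt3, Parva and Parvb were also lower. The core linkers talin (Tln1 and Tln2, log2 0.48 and -0.42) and integrin-linked kinase (Ilk, 0.59) did not pass the test.

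Among 17 other matrix ligands of integrins, 5 were higher and 4 were lower, with Ctgf (12.3-fold), Thbs1 (18.1-fold, from control IgG signals of 10.9 and 20.1, of which 1 was not well above background) and Vcam1 (3.44-fold), the ligand of Itga4, among those higher. Of 19 matrix proteases and inhibitors, 8 were higher and 2 lower, including Mmp24 (9.21-fold) and Adam10 (6.67-fold). Of 16 other receptors of collagen and laminin, 4 were higher and 1 lower, including Ddr1 (6.89-fold), a collagen-binding kinase, and Mrc2, which was lower and not well above background on either CPEB2 IgG array (15.5 and 13.2 against 31.0 and 34.8). Dag1 stood in 2 of these lists. Endothelial markers were mixed, with 2 of 7 higher and 1 lower, and a summed signal of 8038 and 6707 with control IgG and 6438 and 5263 with CPEB2 IgG. Pericyte and smooth muscle markers gave 2 of 6 higher and 1 lower, with sums of 1246 and 1059 against 2079 and 2077. Kdr carried the fall of the first sum, which was 3321 and 2654 against 3587 and 3614 without it, and without Pdgfrb the second was 1002 and 875 against 1251 and 1098. Tek and Myh11 of these marker lists were not tested, and the part of vessel cells in the member values was not tested.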

How the data were processed

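Raw signal intensities were deposited as Agilent Feature Extraction 10.5.1.1 output, 1 colour per array, which the authors' scanner software had already corrected for background within each array; annotation and coordinates are mm9 per the file headers. Flag columns marked probes well above background. Control spots and spots marked as outliers were left out, spots of 1 probe were averaged on the log2 scale, and each array was set to its 75th percentile over 55615 probes. The brightest probe detected on at least 2 arrays stood for a gene. CPEB2 IgG was compared with control IgG in limma 3.58.1 (R 4.3.3; tables in Python 3.11.15) with the experiment as a block, because the study sets each CPEB2 IgG sample against the control of the same number. Same-numbered arrays deviated together (r = 0.20 over all genes, 0.43 over members). With 2 arrays against 2, an exact permutation test that ignores the pairing cannot go below p = 0.333. With the pairs kept, its floor is higher. The p-values cover the spread of these arrays only.

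Members and lists were chosen with earlier results of these data known. Genes named were the 12 largest calls in each direction with 1 sign in both experiments, members past both thresholds, a set of family chains and 3 reference genes; further calls were named to account for every member. Alternatives changed background correction, scaling, probe choice, detection filter, block, variance trend and arrays included. The number of arrays limits the precision. The values of 1 laminin gene are not reported here. No location in exons or untranslated regions was assigned.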

Additional observations from a re-analysis of the deposited data

How the results depend on the processing

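Over 16 alternatives between 12 and 23 members were higher, and Lamc1, Lamb1, Col6a1, Col1a1, Col4a1, Col18a1, Itga4, Itga6 and Itga8 passed in all 16 (Col12a1 in the 15 that could test it). Without the replicate block 19 members were higher and 5 lower, and partner genes gave 37 and 17. With 1 array left out (no block), members gave 14 to 16 higher and 1 to 5 lower, and partners 25 to 33 higher and 6 to 20 lower. The 4 members lower became 1 after quantile normalization, 1 after median centring and 1 without control IgG replicate 1. With no filter on dim probes 2 other members were lower (Col6a5 and Itga2b) and none of the 4. Partners lower, 16 in the reported fit, numbered 5 with no filter, 6 without either control IgG array and 9 without CPEB2 IgG replicate 2. Fits without an array had fewer samples and those with no filter tested 24164 genes; otherwise the cause was not tested. Members past both thresholds were 5 and 6 with an experiment left out, and 11 above a signal of 500. The 8 members with probes spanning over 1 log2 unit ranged from 6 to 9.

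Quantile normalization, median centring, GC centring and the percentile over detected probes moved the median of all genes by 0.13, 0.23, 0.13 and -0.11. Higher calls were 50.9% of all calls, and 61.2% after median centring. Among the named genes, signs turned only where no call was made. Quantile normalization gave 0.048 for Itgb1 and 0.012 for Lama2. Median centring gave 0.080 for Itgb1, 0.13 for Itgb5 and 0.081 for Lama2. GC centring gave 0.17 for Itgb1, 0.14 for Itgb2, 0.42 for Itgb5 and 0.37 for Lama2. The mean of probes gave 0.017 for Lama2 and -0.18 for Itgam. Lama4 was -0.025 without scaling and -0.080 with the percentile over detected probes. Without control IgG replicate 1, Itga1 was 0.95, Itgam -0.74, Itgb1 0.091 and Itgb5 0.16. Without control IgG replicate 2, Itga5 was -0.049 and Lama4 -0.028. Lama4 was -0.29 without CPEB2 IgG replicate 1, and Itgb2 0.62 and Itgb5 0.12 without CPEB2 IgG replicate 2.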
